A study of Mus musculus with 20 samples.

Results

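Integrins are the paired adhesion receptors of the cell surface, and the results below concern the genes of 10 integrin chains in mouse alveolar macrophages. The members were taken by name from the deposited expression table: Itgad, Itgal, Itgam, Itgax, Itgav, Itga4, Itgb1, Itgb2, Itgb5 and Itgb7. All 10 had a row, of 13225 genes in the table, and 8 of them had a read in every library. An integrin is a heterodimer of 1 alpha and 1 beta chain, which links ligands outside the cell to the actin cytoskeleton and is switched between inactive and active shapes by adaptors bound to its tails. Leukocytes carry a family of their own, in which the beta 2 chain CD18 (Itgb2) pairs with CD11a (Itgal), CD11b (Itgam), CD11c (Itgax) or CD11d (Itgad). The mouse alveolar macrophage, the resident phagocyte of the airspaces, is known for high CD11c and low CD11b on its surface.

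The cells were sorted from lungs by surface CD45, Siglec-F and CD11c, so Itgax, the gene of CD11c, encodes a protein of the gate itself. The 4 groups were C57BL/6 wild-type mice in cigarette smoke (WT smoke), C57BL/6 wild-type mice in air (WT air), mice of strain B6.Cg-Mir155tm1.1Rsky/J lacking the microRNA miR-155 in cigarette smoke (KO smoke), and mice of that strain in air (KO air). Exposure lasted 4 weeks in every group, each group held 5 mice, and each mouse gave 1 library of polyadenylated RNA. The mice carry codes: IIa1, IIa5, IIb1, IIb2 and IIb3 in WT smoke; Ia3, Ia4, Ib1, Ib2 and Ib4 in WT air; IVa2, IVa4, IVa5, IVb2 and IVb4 in KO smoke; and IIIa5, IIIb1, IIIb2, IIIb3 and IIIb4 in KO air. Values of single libraries are given in that order.

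Libraries held 6885680 to 11952088 reads. The KO air libraries IIIb2, IIIb3 and IIIb4 had the most genes without a read, up to 1645, against 259 to 1224 in the other 17 libraries. The calls of members and of the integrin-related lists between KO smoke and KO air were also checked without them. Mir155hg, the host transcript of miR-155, had 48 reads over the WT smoke libraries and 2 over WT air, and 8 over KO smoke and 25 over KO air; which bases the deletion removes is not stated in the labels, so this transcript cannot serve as a test of the genotype. Of 23 alveolar macrophage markers 22 were in the table, and their summed level was 36770 to 42282 CPM (reads of a gene, scaled to an equal total for each library) in WT smoke and 35926 to 40100 CPM in WT air, and 38023 to 42246 CPM in KO smoke and 35098 to 40863 CPM in KO air. Chil3 was the largest part of that sum, at 15262 to 20432 CPM in WT smoke. The markers were split: at a limma adjusted p under 0.05, 6 were higher and 9 lower in WT smoke (9.66% and 12.8% of all genes). In KO smoke 7 were higher and 8 lower (7.05% and 8.45%). Siglecf, the gene of the other lineage marker of the sort, was lower with smoke by -1.25 log2 in WT and -1.15 log2 in KO (limma adjusted p 2.25e-08 and 1.41e-07).

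The members lie on 6 chromosomes of the mouse genome (GRCm38). Itgal (chr7:127296260-127335138), Itgam (chr7:128062640-128118491), Itgax (chr7:128129547-128150657) and Itgad (chr7:128154376-128223816) share the plus strand of chromosome 7, where 11.1 kb separate Itgam from Itgax and 3.72 kb separate Itgax from Itgad, while Itgal lies 728 kb upstream of Itgam. Itga4 (chr2:79255426-79333123) and Itgav (chr2:83724397-83806916) are on chromosome 2. Itgb1 (chr8:128685654-128733200), Itgb2 (chr10:77530252-77565708), Itgb5 (chr16:33829665-33949338) and Itgb7 (chr15:102215995-102231944) each lie alone on theirs.

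RefSeq promoter sequences on GRCm38.p6, from 250 bases before to 50 bases after the start of a gene, matched 7 of the 10 members, and 4 are shown. Itgam and Itgax are shown because the 2 genes lie side by side and differed widely in level; Itga4 is shown because it was lower with smoke, and Itgb5 because it was higher. All 4 are on the plus strand, at chr7:128062390-128062689, chr7:128129300-128129599, chr2:79255176-79255475 and chr16:33829415-33829714, and capitals mark GAGGAA or its reverse complement TTCCTC, the purine-rich core that the myeloid transcription factor PU.1 is known to read.

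Itgam: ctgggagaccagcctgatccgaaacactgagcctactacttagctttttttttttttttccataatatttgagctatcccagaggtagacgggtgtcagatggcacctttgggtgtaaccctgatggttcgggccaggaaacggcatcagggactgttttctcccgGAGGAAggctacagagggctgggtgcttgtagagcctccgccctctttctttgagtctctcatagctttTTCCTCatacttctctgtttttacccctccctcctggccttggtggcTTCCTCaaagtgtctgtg

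Itgax: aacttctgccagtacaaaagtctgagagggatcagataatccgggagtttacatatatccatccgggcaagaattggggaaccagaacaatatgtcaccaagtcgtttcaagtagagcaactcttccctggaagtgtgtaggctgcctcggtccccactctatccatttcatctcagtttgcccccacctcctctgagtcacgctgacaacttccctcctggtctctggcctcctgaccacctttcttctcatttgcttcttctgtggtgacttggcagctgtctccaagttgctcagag

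Itga4: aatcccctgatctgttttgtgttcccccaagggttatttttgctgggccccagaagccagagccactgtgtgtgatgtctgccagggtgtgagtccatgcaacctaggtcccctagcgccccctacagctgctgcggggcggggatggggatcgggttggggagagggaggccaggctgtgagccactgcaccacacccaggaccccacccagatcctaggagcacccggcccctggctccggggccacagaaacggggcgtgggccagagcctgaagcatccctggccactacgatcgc

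Itgb5: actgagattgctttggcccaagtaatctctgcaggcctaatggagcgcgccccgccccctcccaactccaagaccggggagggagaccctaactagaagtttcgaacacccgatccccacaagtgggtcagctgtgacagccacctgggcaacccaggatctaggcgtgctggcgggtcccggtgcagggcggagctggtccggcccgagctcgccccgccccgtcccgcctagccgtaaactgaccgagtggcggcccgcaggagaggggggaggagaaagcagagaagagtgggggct

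The letters GAGGAA occurred 3 times in the Itgam window and in none of the other 3 windows shown. On either strand they were found in 4 of the 7 members' promoters (57.1%), namely those of Itgam, Itgav, Itgb1 and Itgb7, against 28.3% of all 32851 promoters of the same length. The microRNA missing in the KO strain, mouse miR-155-5p (chr16:84714143-84714165, plus strand), is shown with its seed, bases 2 to 8, in capitals because the seed defines the sites searched for next.

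mmu-miR-155-5p: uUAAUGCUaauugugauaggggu

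The complement of that seed, AGCATTA, was in the longest 3' UTR of 0 of the 10 members and of 9.14% of the 11282 genes of the table with a 3' UTR (1031 genes).

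Expression was compared between genes as CPM per kb of the longest coding transcript, averaged over the 20 libraries. Itgb2 stood first with 834 CPM per kb and a range over libraries of 732 to 947. Itgax followed with 475 CPM per kb (432 to 535), and neither range touched that of another member. Itgb1, the beta chain shared by most matrix-binding integrins, had 149 CPM per kb (121 to 170), and Itgal, the alpha chain of LFA-1, had 126 (92.9 to 163), so that these 2 neighbours overlapped. Itgb5, a partner of the alpha v chain, had 79.4 CPM per kb (65.8 to 101), which overlapped the low end of Itgal only.

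The other 5 members were scarce. Itga4, the alpha chain of VLA-4, had 14.7 CPM per kb (7.65 to 22.5) and Itgav, the alpha v chain, had 7.36 (5.69 to 9.29). Itgad averaged 2.59 CPM per kb (0.133 to 6.10), Itgam 1.38 (0 to 9.44) and Itgb7, a partner of the alpha 4 chain on lymphocytes, 0.634 (0 to 3.81). From Itga4 downward each range overlapped the next. Among the 4 partners of the beta 2 chain, Itgax was the most abundant in every group. The rarest was Itgad in smoke (0.516 CPM per kb against 3.72 for Itgam in WT, and 0.388 against 0.935 in KO) and Itgam in air (0.596 against 4.75 for Itgad in WT, and 0.248 against 4.71 in KO).

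**Figure D1:**
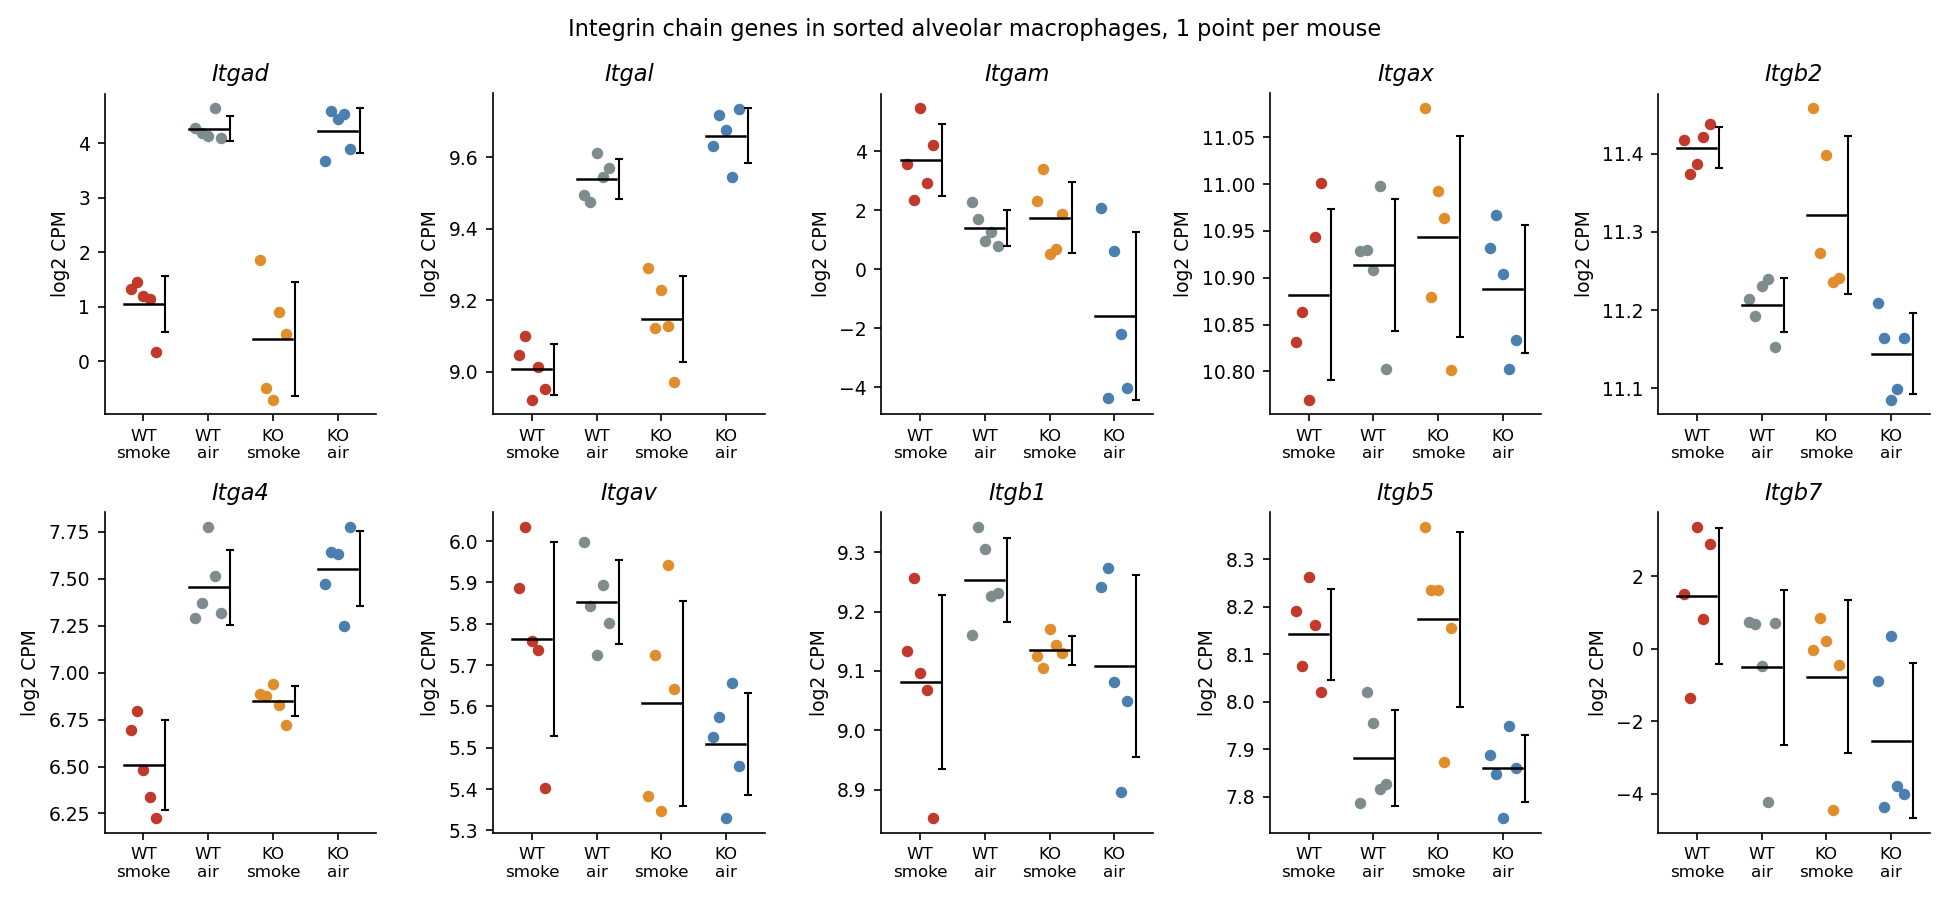
Level of each integrin gene in log2 CPM (y axis, a separate scale for each gene) in WT smoke, WT air, KO smoke and KO air (x axis), with 1 point per mouse, a line at the mean and a bar of 1 SD beside it. Itgad, Itgal and Itga4 separate both smoke groups from both air groups, while the Itgax points of all 4 groups lie between 10.77 and 11.08.

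With smoke Itgad, Itgal and Itga4 were lower and Itgb2 and Itgb5 higher in both genotypes. Itgax, Itgav, Itgb1 and Itgb7 gave no call in either. Itgam was higher past the threshold in KO, where its groups overlapped. In WT, where its groups did not overlap, it missed the threshold (adjusted p 0.0587 by limma). Between WT smoke and WT air, 5 of 10 members passed an adjusted p under 0.05 in limma (Benjamini-Hochberg over all genes), against 22.4% of all genes; 2 were higher (9.66% of all genes) and 3 lower (12.8%). Between KO smoke and KO air 6 of 10 passed, against 15.5% of all genes, with 3 higher (7.05%) and 3 lower (8.45%). Without the 3 KO air libraries that stood apart 3 of 10 passed, all lower (Itgad, Itgal and Itga4). In that fit 612 of the 13225 genes were called higher and 608 lower, against 933 and 1118 with all libraries. The members' median log2 change was -0.06 in WT and 0.08 in KO, and that of all genes -0.02 and -0.01. The values of the 2 groups did not overlap for 5 members in WT (18.1% of all genes) and for 4 in KO (9.88%). In bulk RNA, fewer cells of a type and less RNA per cell cannot be told apart, and this holds for every value here.

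Itgad, the alpha chain CD11d, had the largest decrease among the members. Its log2 CPM was 1.32, 1.45, 1.21, 1.14 and 0.17 in WT smoke, against 4.28, 4.20, 4.14, 4.65 and 4.10 in WT air. It was 1.85, -0.49, -0.71, 0.91 and 0.50 in KO smoke, against 3.68, 4.59, 4.44, 4.54 and 3.90 in KO air. Every smoke library was below every air library, also across genotypes. Itgad averaged 2.12 ± 0.62 CPM in WT smoke and 19.5 ± 3.24 CPM in WT air (SD, n = 5 each), and its log2 change was -3.22 ± 0.39 (SE, adjusted p 4.07e-07 by limma), a 9.30-fold lower level. In KO it averaged 1.59 ± 1.22 CPM in smoke and 19.3 ± 5.13 CPM in air, with a log2 change of -3.82 ± 0.39 (adjusted p 3.25e-08), 14.1-fold lower. Those levels rest on 102 reads over the 5 WT smoke libraries against 868 in WT air, and on 73 in KO smoke against 841 in KO air. By size of decrease Itgad ranked 2 in both smoke comparisons among the 10402 genes whose mean log2 CPM reached 1, and 13 in WT and 4 in KO among all 13225. Itgad shares 9.47% of its 50-base stretches with Itgax, and 12.4% of its exon bases lie opposite exons of other genes; whether the counting used strand is not stated in the labels, and the part of such reads was not tested.

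Itgal, the alpha chain of LFA-1, which binds ICAM adhesion molecules, was lower by a smaller and tightly measured amount. Its log2 CPM was 9.05, 9.10, 8.92, 9.02 and 8.95 in WT smoke, against 9.49, 9.47, 9.61, 9.54 and 9.57 in WT air. It was 9.29, 9.12, 9.23, 9.13 and 8.97 in KO smoke, against 9.63, 9.72, 9.68, 9.54 and 9.73 in KO air. The smoke and air libraries did not overlap in either genotype. The log2 change was -0.53 ± 0.06 in WT (adjusted p 1.35e-07 by limma) and -0.51 ± 0.06 in KO (4.04e-07), 1.45-fold and 1.43-fold lower.

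Itga4, whose product binds VCAM-1 and fibronectin when paired with beta 1, also fell. Its log2 CPM was 6.70, 6.80, 6.48, 6.34 and 6.22 in WT smoke, against 7.29, 7.37, 7.78, 7.51 and 7.32 in WT air. It was 6.89, 6.88, 6.94, 6.83 and 6.72 in KO smoke, against 7.47, 7.64, 7.63, 7.25 and 7.78 in KO air. No smoke library reached an air library in either genotype. The log2 change was -0.95 ± 0.11 in WT (adjusted p 9.31e-08 by limma; 1.93-fold lower) and -0.70 ± 0.11 in KO (1.57e-05; 1.63-fold lower). Exons of Cerkl on the other strand cover 8.04% of the exon bases of Itga4.

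Itgb2, the common beta chain of the leukocyte integrins, was slightly higher with smoke. Its log2 CPM was 11.42, 11.37, 11.39, 11.42 and 11.44 in WT smoke, against 11.21, 11.19, 11.23, 11.24 and 11.15 in WT air. It was 11.46, 11.27, 11.40, 11.24 and 11.24 in KO smoke, against 11.21, 11.16, 11.09, 11.10 and 11.16 in KO air. The groups did not overlap in either genotype; the closest libraries were 11.24 in KO smoke and 11.21 in KO air. The log2 change was 0.20 ± 0.06 in WT (adjusted p 0.0114 by limma; 1.15-fold) and 0.18 ± 0.06 in KO (0.0361; 1.13-fold). The KO call was lost without the 3 KO air libraries that stood apart (log2 change 0.13, adjusted p 0.330) and without any 1 of IVa2, IVa5, IIIb2, IIIb3 or IIIb4 (0.14 to 0.18, adjusted p 0.0521 to 0.116), and both calls were lost after quantile normalization (0.12, adjusted p 0.174 in WT; 0.17, adjusted p 0.0635 in KO). The KO call was also lost in a fit of only the 2 groups compared (0.18, adjusted p 0.127) and with the letter of the mouse code as a covariate (0.16, adjusted p 0.0860).

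Itgb5, which with alpha v forms a receptor for vitronectin, rose in both genotypes. Its log2 CPM was 8.19, 8.07, 8.26, 8.16 and 8.02 in WT smoke, against 7.79, 8.02, 7.96, 7.82 and 7.83 in WT air. It was 8.37, 8.23, 8.24, 7.87 and 8.15 in KO smoke, against 7.89, 7.85, 7.75, 7.95 and 7.86 in KO air. In WT the lowest smoke library and the highest air library met at 8.02, and in KO the smoke library IVb2 lay among the air libraries. The log2 change was 0.26 ± 0.07 in WT (adjusted p 0.0111 by limma) and 0.31 ± 0.07 in KO (0.00372), and in KO it was 0.31 with an adjusted p of 0.0533 without the 3 KO air libraries that stood apart.

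Itgam, the alpha chain CD11b of the complement receptor Mac-1, was rare in every group and the most variable of the beta 2 partners. It had 136, 45, 393, 71 and 172 reads in WT smoke, against 42, 27, 17, 22 and 15 in WT air. It had 43, 95, 10, 17 and 32 reads in KO smoke, against 50, 0, 11, 1 and 0 in KO air. Each WT smoke library exceeded each WT air library in log2 CPM (2.34 to 5.47, against 0.80 to 2.28), while the KO groups overlapped (0.52 to 3.39 in smoke, -4.36 to 2.08 in air). Itgam averaged 17.4 ± 15.8 CPM in WT smoke and 2.79 ± 1.27 CPM in WT air, and 4.38 ± 3.68 CPM in KO smoke and 1.16 ± 1.80 CPM in KO air. Its log2 change was 2.30 ± 0.88 in WT, which did not pass (adjusted p 0.0587 by limma), and 3.33 ± 0.88 in KO, which did (0.00827). In WT it passed in 12 of 31 alternative settings. The WT adjusted p by limma was 0.000742 in a fit of only the 2 groups compared (2.30). On the log2(CPM + 1) and log2(CPM + 5) scales it was 0.00247 (1.97) and 0.00136 (1.30). It was 0.0408 without WT smoke IIa5 (2.65) and 0.0240 to 0.0430 without KO air IIIa5, IIIb1, IIIb2 or IIIb4 (2.30). The highest was 0.177, without WT smoke IIb1 (1.86). In KO the change passed in 27 of 31, with log2 changes over the 31 between 0.57 (log2(CPM + 5)) and 4.24. Without the 3 KO air libraries that stood apart the KO value was 2.90 (adjusted p 0.0817) and the WT value 2.30 (0.0294).

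A pair of limits apply to the level of Itgam. The gene model Gm49368 lies on the same strand, covers 68.7% of the exon bases of Itgam and has no row in the table, so reads in the shared exons may have been left out, depending on a counting step that neither the labels nor the processing notes describe. The second is the makeup of the sort. Of 12 neutrophil markers 5 were in the table, and their summed level was 159 to 357 CPM in WT smoke and 90.3 to 129 CPM in WT air, and 139 to 314 CPM in KO smoke and 86.1 to 134 CPM in KO air; S100a9 had no read in either air group. The members of that list moved in opposite directions: Mmp8 made up most of the sum, with 120 to 288 CPM in WT smoke and 30.6 to 44.3 CPM in WT air, and rose by 2.34 log2 in WT and 2.42 in KO, while Csf3r had -1.69 in WT and -1.59 in KO (adjusted p 9.97e-11 and 5.22e-10 by limma). The 2 measured T and NK cell markers of 14, Il7r and Cd4, summed to 7.47 to 41.2 CPM in WT smoke and 0.571 to 1.71 CPM in WT air, and to 0.642 to 6.08 CPM in KO smoke and 0 to 1.26 CPM in KO air. Most of the WT smoke sum was Il7r, at up to 39.3 CPM against at most 1.91 CPM for Cd4. Il7r had log2 changes of 4.00 in WT and 3.39 in KO, and Cd4 of 2.92 and 0.22. Monocyte and interstitial macrophage markers, 14 of 20 measured, summed to 539 to 867 CPM in WT smoke and 703 to 855 CPM in WT air, and to 554 to 677 CPM in KO smoke and 757 to 981 CPM in KO air. Dendritic cell markers, 6 of 10 measured, summed to 217 to 367 CPM in WT smoke and 142 to 170 CPM in WT air, and to 198 to 228 CPM in KO smoke and 124 to 172 CPM in KO air. Most of that sum was Cd24a, at 190 to 327 CPM in WT smoke and 124 to 149 CPM in WT air. Cd24a rose by 0.82 log2 in WT and 0.57 in KO. In each genotype 2 of the 6 were called higher and 4 were not called, among them Clec9a (0.24 in WT and 0.10 in KO) and Batf3 (-0.33 and -0.90). The 2 measured eosinophil markers of 8 summed to 126 to 193 CPM in WT smoke and 72.0 to 82.2 CPM in WT air, and to 119 to 161 CPM in KO smoke and 71.2 to 123 CPM in KO air; of these, Ear6 rose by 2.87 log2 in WT and 3.24 in KO, while Siglece had -1.09 in WT and -1.30 in KO (adjusted p 1.13e-07 and 7.99e-09 by limma). The library with the most Itgam, IIb1 of WT smoke, also had the highest neutrophil, T and NK cell and monocyte sums of its group (357, 41.2 and 867 CPM). Its dendritic cell and eosinophil sums (236 and 164 CPM) were not the highest of the group, which were those of IIb3 (367 and 193 CPM). The part of such cells in the Itgam values was not tested.

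**Figure D2:**
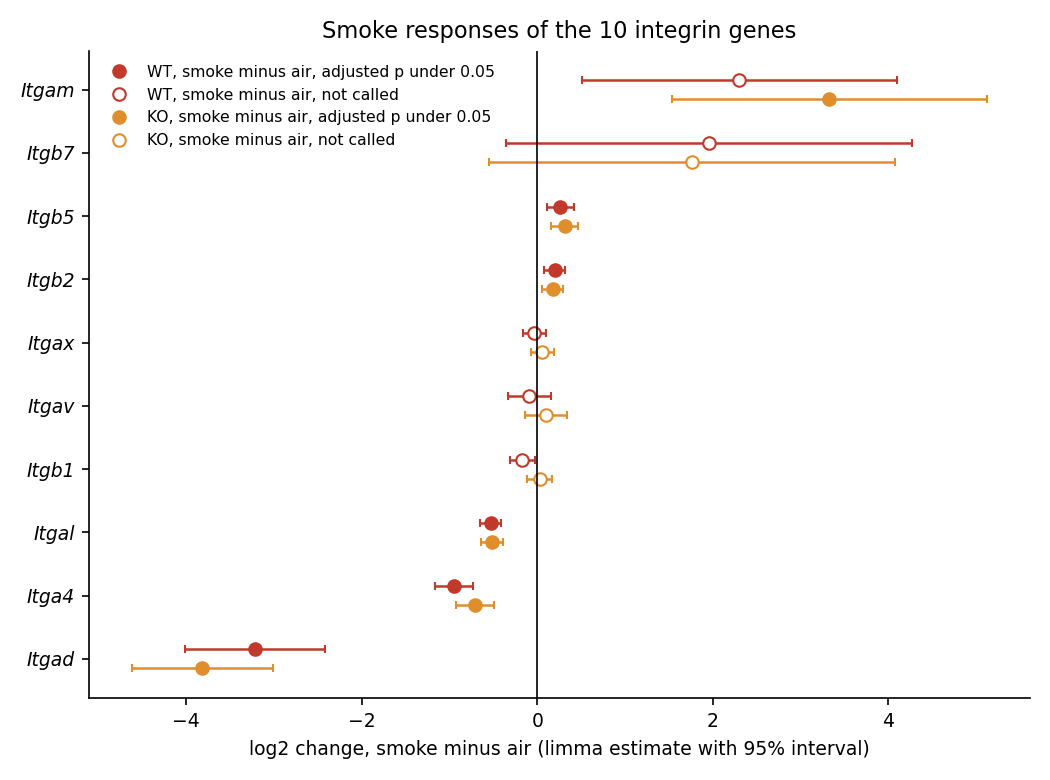
Log2 change with smoke (x axis, smoke minus air) of the 10 integrin genes (y axis, ordered by the WT value) in WT and KO, with 95% intervals of the limma estimate; filled points passed an adjusted p under 0.05. Itgad, Itga4 and Itgal lie left of 0 in both genotypes, and the intervals of Itgam and Itgb7 are the widest.

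Itgax did not pass in any comparison. Its log2 CPM was 10.83, 10.86, 10.77, 10.94 and 11.001 in WT smoke, against 10.93, 10.93, 10.91, 10.998 and 10.80 in WT air. It was 11.08, 10.88, 10.99, 10.96 and 10.80 in KO smoke, against 10.93, 10.97, 10.90, 10.80 and 10.83 in KO air. The groups overlapped throughout. The log2 change was -0.03 in WT (95% interval -0.16 to 0.10, adjusted p 0.788 by limma) and 0.06 in KO (-0.07 to 0.19, adjusted p 0.616).

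The remaining members gave no call with smoke. Itgav, the alpha v chain, spanned 5.40 to 6.04 log2 CPM in WT smoke and 5.73 to 6.00 in WT air, and 5.35 to 5.94 in KO smoke and 5.33 to 5.66 in KO air, with log2 changes of -0.09 (95% interval -0.33 to 0.15) and 0.10 (-0.14 to 0.34). Itgb1 spanned 8.85 to 9.26 in WT smoke and 9.16 to 9.34 in WT air, and 9.11 to 9.17 in KO smoke and 8.90 to 9.27 in KO air. Its log2 change was -0.17 ± 0.07 in WT (adjusted p 0.0795 by limma, 0.0403 without the 3 KO air libraries that stood apart and 0.0260 without IIa5) and 0.03 in KO (0.862). Itgb7 had 211 reads over WT smoke and 47 over WT air, and 38 over KO smoke and 15 over KO air, with no read in 5 of the 20 libraries. Its log2 changes of 1.96 ± 1.13 in WT and 1.77 ± 1.13 in KO did not pass (adjusted p 0.237 and 0.324), with 95% intervals of -0.35 to 4.28 in WT and -0.55 to 4.08 in KO; the WT value passed on the log2(CPM + 5) scale (0.54, adjusted p 0.0289). IIb1 was again the highest library, with 91 reads, beside its T and NK cell marker sum of 41.2 CPM, most of it Il7r. The part of such cells was not tested.

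The 4 partners of the beta 2 chain made up different shares of their sum in smoke and in air. As a share of their summed CPM per kb, Itgax made up 81.9% ± 1.24 in WT smoke and 76.3% ± 1.21 in WT air, and 81.6% ± 0.43 in KO smoke and 74.5% ± 0.95 in KO air (SD, n = 5 each). Itgal made up 17.3% ± 1.14 in WT smoke and 22.8% ± 1.29 in WT air, and 18.2% ± 0.36 in KO smoke and 24.7% ± 1.02 in KO air. Smoke and air libraries did not overlap for either share. Itgad made up 0.0915% in WT smoke and 0.757% in WT air, and 0.0634% in KO smoke and 0.750% in KO air. Itgam made up 0.668% in WT smoke and 0.0952% in WT air, and 0.159% in KO smoke and 0.0390% in KO air. The order of the rarer pair was thus Itgam over Itgad by the mean of each smoke group, and Itgad over Itgam by the mean of each air group.

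Set against the same sum, the beta chain stood higher in smoke. The ratio of Itgb2 to its 4 alpha chains, in CPM per kb, was 1.61 ± 0.06 in WT smoke and 1.27 ± 0.02 in WT air, and 1.44 ± 0.06 in KO smoke and 1.21 ± 0.05 in KO air. Its range was 1.54 to 1.69 in WT smoke and 1.24 to 1.30 in WT air, and 1.35 to 1.51 in KO smoke and 1.15 to 1.25 in KO air, so the ranges were apart in both genotypes. Shares and ratio are descriptions of transcripts with no test, and say nothing of how many heterodimers stood on the surface.

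**Figure D3:**
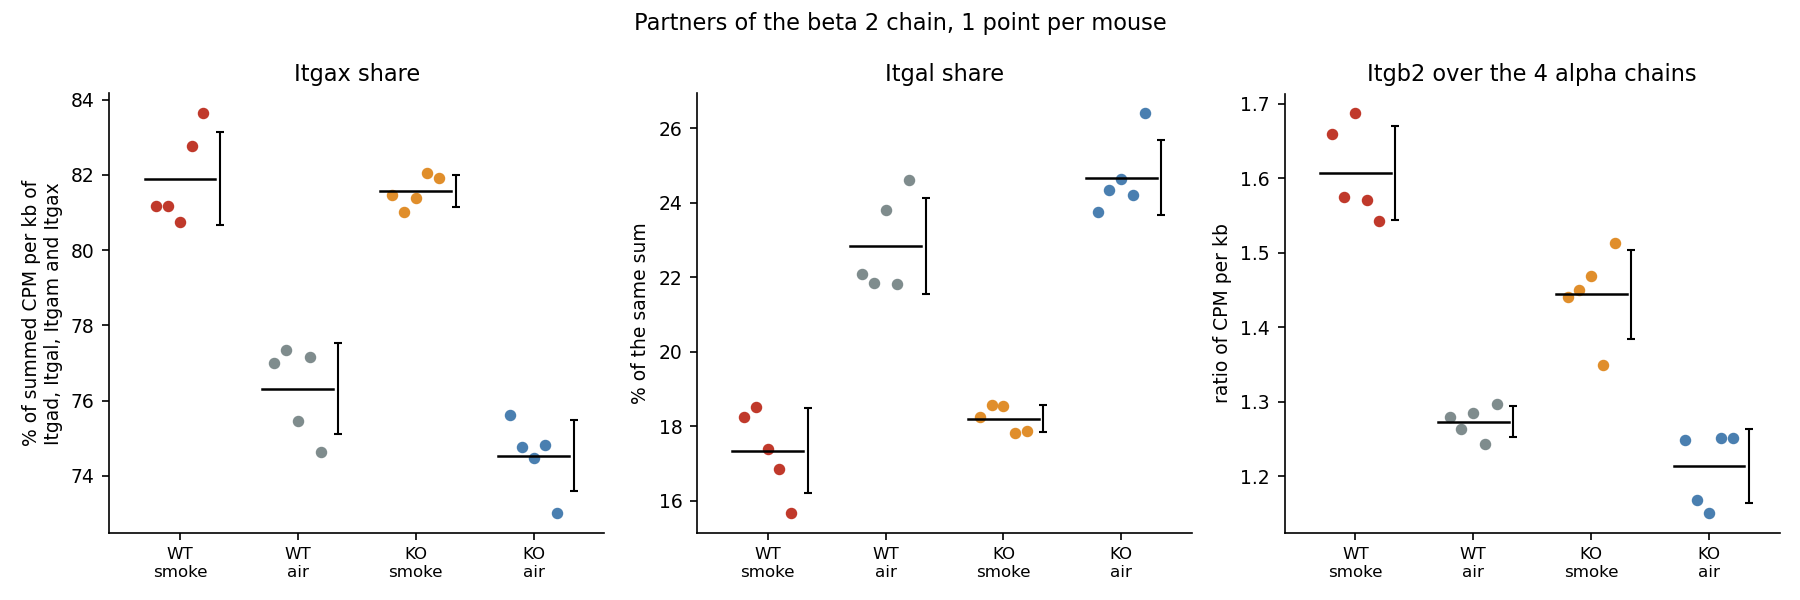
Share of Itgax (left) and Itgal (middle) in the summed CPM per kb of Itgad, Itgal, Itgam and Itgax, in percent, and ratio of Itgb2 to that sum (right), in WT smoke, WT air, KO smoke and KO air, with 1 point per mouse, the mean as a line and 1 SD as a bar; the y axes do not start at 0. Itgax shares are above 80% in all smoke libraries and below 78% in all air libraries.

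The 3 neighbours on chromosome 7 did not move together. Over the 161 kb from the start of Itgam to the end of Itgad, Itgam had positive log2 changes (2.30 in WT, not called, and 3.33 in KO), Itgax values near 0 and Itgad values of -3.22 and -3.82. Of 17 other measured genes within 250 kb of this cluster, 1 was higher in WT smoke (Pycard, 0.34) and 2 lower (Zfp646, -0.34, and Tial1, -0.33). Over all genes 9.66% were called higher and 12.8% lower in WT smoke, and the neighbours were not tested against these shares. In KO smoke 1 was higher (BC017158, 0.53), against 7.05% of all genes. The median log2 change of the 17 was 0.04 in WT and -0.03 in KO. Cox6a2, a rare transcript (mean log2 CPM -1.41) whose gene overlaps Itgad on the other strand, had log2 changes of 2.76 in WT and 2.44 in KO, neither called (adjusted p 0.0541 in WT and 0.113 in KO by limma).

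**Figure D4:**
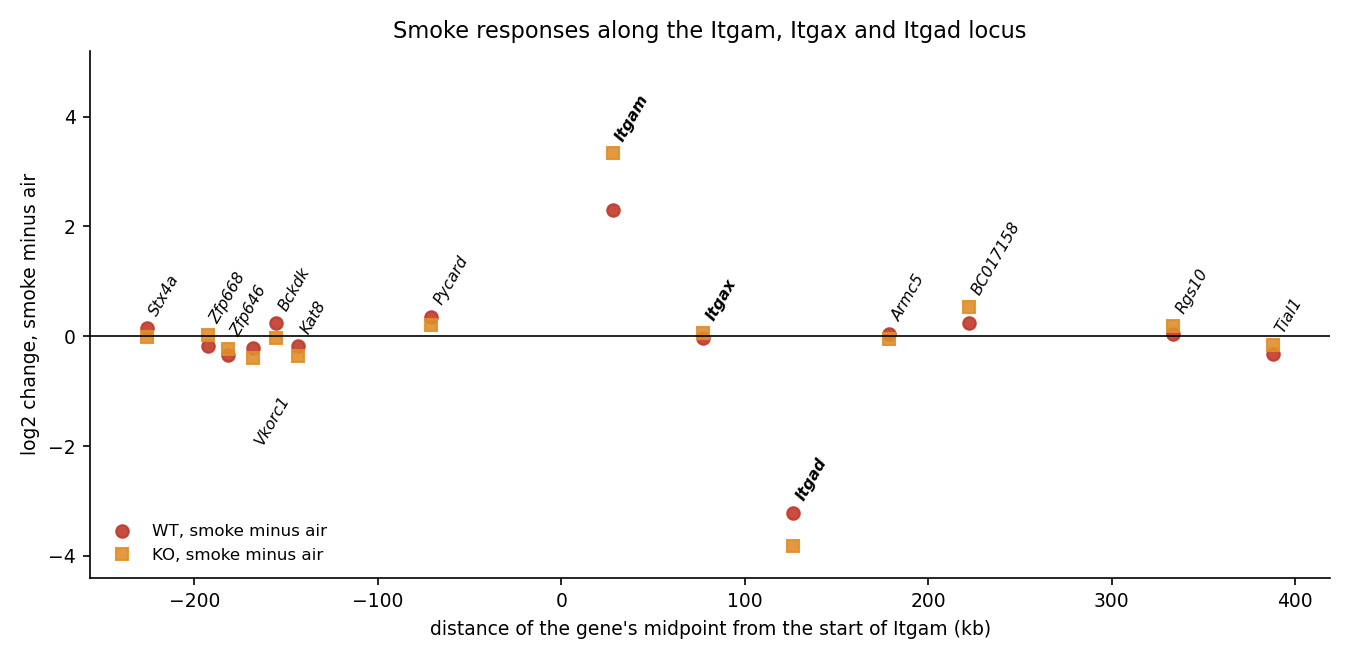
Log2 change with smoke (y axis, smoke minus air) of measured genes (mean log2 CPM from 1 upward) around the Itgam, Itgax and Itgad cluster, 1 of them left out, by distance of the gene's midpoint from the start of Itgam in kb (x axis), in WT (circles) and KO (squares). Itgam (2.30 and 3.33) and Itgad (-3.22 and -3.82) lie far from 0, with Itgax near 0 between them.

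No member passed the threshold between the miR-155 KO strain and WT, in comparisons that share their libraries with those of smoke. Between KO air and WT air 0 of 10 passed in limma, against 0.416% of all genes. Of the 10 members 3 had an unadjusted p under 0.05, beside 1537 of all 13225 genes. Itgav was the only member whose KO air and WT air libraries did not overlap (1.83% of all genes): it had 5.53, 5.57, 5.33, 5.66 and 5.46 log2 CPM in KO air, against 6.00, 5.84, 5.73, 5.89 and 5.80 in WT air. The KO air libraries were all lower, with a log2 change of -0.34 ± 0.12 that did not pass the adjustment (adjusted p 0.216 by limma). Over 31 alternatives the log2 change of Itgav was -0.38 to -0.30 and its adjusted p by limma 0.174 to 0.723. Without the 3 KO air libraries that stood apart, 0 members passed between KO air and WT air. Itgb1 had a log2 change of -0.14 ± 0.07 (adjusted p 0.427), and Itgam one of -2.98 ± 0.88 (0.137), which passed in 1 of 31 alternatives, without the KO air library IIIa5 (-3.89, adjusted p 0.00962).

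Between KO smoke and WT smoke 0 of 10 passed, against 1.58% of all genes. Here 3 members had an unadjusted p under 0.05, beside 1786 of all 13225 genes, and 0 had groups that did not overlap (4.24% of all genes). Itga4 had a log2 change of 0.34 ± 0.11 (95% interval 0.13 to 0.56, adjusted p 0.0981 by limma), and 0.42 (adjusted p 0.0273) without the WT smoke library IIa5. Itgal had 0.14 ± 0.06 (adjusted p 0.286) and Itgam -1.95 ± 0.88 (0.317). The difference between the KO and WT smoke responses passed for 0 members, also under each of 30 alternatives, and for 0% of all genes; 0 members and 1302 genes had an unadjusted p under 0.05, and the smallest unadjusted p of a member was 0.0549, for Itgb1. For Itgad the KO response minus the WT response was -0.60 (95% interval -1.73 to 0.54) and for Itga4 0.24 (-0.06 to 0.55).

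Of 18 other integrin chain genes, 7 had a row and none passed with smoke in either genotype (unadjusted p under 0.05: Itga1 in WT, 0 genes in KO). Of all genes 22.4% passed in WT and 15.5% in KO. Itga5, the fibronectin receptor chain, averaged 7.75 log2 CPM in WT smoke and 7.75 in WT air (log2 change -0.01, 95% interval -0.19 to 0.17), and 7.61 in KO smoke and 7.57 in KO air. Itga6, a laminin receptor chain, had log2 changes of 0.08 in WT and 0.04 in KO. Itga1, a collagen receptor chain, had -0.52 ± 0.24 in WT (adjusted p 0.119 by limma) and -0.02 in KO. Itgae, the alpha chain that pairs with beta 7, had 2.09 ± 1.07 in WT (0.173) and 1.49 in KO. Itga2b had -1.02 in WT and 2.22 in KO, Itga7 -1.01 and -0.35, and Itga10 -0.53 and 0.78. The last 4 had between 2 and 130 reads over the 5 libraries of a group.

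Of the integrin ligands, 18 of 32 were measured. In WT smoke 6 were higher and 3 lower, against 9.66% and 12.8% of all genes. In KO smoke 3 were higher and 2 lower, against 7.05% and 8.45% (2 higher and 3 lower without the 3 KO air libraries that stood apart). The list was not tested against these shares. Mfge8, which bridges dying cells to alpha v integrins, rose by 3.92 ± 0.25 log2 in WT (adjusted p 3.04e-12 by limma) and 3.59 ± 0.25 in KO (2.83e-11). Spp1 (osteopontin), a ligand of alpha v and alpha 4 integrins, rose by 1.58 ± 0.15 in WT and 0.87 ± 0.15 in KO, and was lower in KO smoke than in WT smoke (-0.74 ± 0.15, adjusted p 0.00626). Among the receptor genes for these ligands, Itgb5 rose, Itga4 fell and Itgav was not called. Cdh1, the E-cadherin bound by alpha E beta 7, rose by 0.59 in WT and 0.41 in KO (0.39, adjusted p 0.0596 by limma, without the 3 libraries). Adam8, whose product can bind integrins, had 2.37 ± 0.49 in WT (0.000634) and 0.67 ± 0.49 in KO (0.405).

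Activators and adaptors switch integrins on or tie them to actin. Of 22 measured activators and adaptors, of 25 listed, 3 were higher and 8 lower in WT smoke, against 9.66% and 12.8% of all genes. In KO smoke 1 was higher and 3 lower, against 7.05% and 8.45% (1 and 1 without the 3 KO air libraries that stood apart). The list's median log2 change was -0.07 in WT and -0.08 in KO. Over all genes the lower calls also outnumbered the higher ones in both genotypes, and the list was not tested against these shares. Rassf5 (RAPL), which binds the active small GTPase Rap and the alpha L chain, fell by 0.55 in WT and 0.49 in KO on the log2 scale (adjusted p 9.83e-07 and 1.05e-05 by limma). Apbb1ip (RIAM), which recruits talin, had -0.38 ± 0.07 in WT (0.000384) and -0.05 ± 0.07 in KO (0.742). Flna, an actin linker that binds beta chain tails, had -0.29 in both genotypes (0.00239 in WT and 0.00356 in KO; in KO -0.22, adjusted p 0.151, without the 3 libraries). Tln2, the scarcer talin gene, had 3.05 ± 0.69 in WT and 3.04 ± 0.69 in KO (0.00151 and 0.00227).

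Of 38 measured adhesion complex and signalling genes, of 41 listed, 5 were higher and 7 lower in WT smoke, and 6 higher and 8 lower in KO smoke (3 and 7 without the 3 libraries). Over all genes, 9.66% were called higher and 12.8% lower in WT smoke, and 7.05% and 8.45% in KO smoke. The lists of this paragraph were not tested against these shares. The actin regulator Evl had -0.83 ± 0.07 in WT and -0.71 ± 0.07 in KO. The docking protein gene Nedd9 had -0.56 and -0.35, and the focal adhesion gene Zyx -0.32 and -0.53, each past the limma threshold in both genotypes; in KO, Nedd9 had -0.21 (adjusted p 0.237) without the 3 libraries. Of 17 measured podosome actin genes, of 18 listed, 8 were higher and 2 lower in WT smoke, and 6 higher and 1 lower in KO smoke (4 and 0 without the 3 libraries). Gsn (gelsolin, which severs actin filaments) rose by 1.04 ± 0.09 in WT and 0.78 ± 0.09 in KO. Cttn (cortactin) rose by 0.99 in WT and 0.53 in KO (0.58, adjusted p 0.0928, without the 3 libraries), Cfl1 (cofilin) by 0.48 and 0.20, and Msn (moesin) by 0.28 and 0.27. Of the 8 integrin-associated tetraspanin genes, all measured, 2 were higher and 0 lower in WT smoke, and 3 higher and 1 lower in KO smoke, led by Cd63 with 1.93 ± 0.11 and 1.68 ± 0.11. Tspan4 rose by 1.50 in WT and 1.06 in KO. Cd53 rose by 0.41 in KO (0.15 in WT, not called) and Cd151 had -0.37 in KO (-0.16 in WT, not called), and in KO -0.29 (adjusted p 0.251 by limma) without the 3 libraries.

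For each member that changed with smoke, the 3 genes with the most similar pattern were found by the root mean square difference of their centred log2 CPM over the 20 libraries, among 10393 other genes. Trp53i11 lay closest to Itgad, at 0.61, followed by Fabp1 and Ppp1r9a, both at 0.77. Rassf4, Aplp2 and Rassf5 were closest to Itgal, at 0.09 each, and Rassf5 is also among the activators above. Cdk6, Nfix and Zbtb4 were closest to Itga4, at 0.14, 0.15 and 0.17. Cs, Gars and Akr1a1 were closest to Itgb2, at 0.06 to 0.07, and Npc1, Hexa and Fcgr3 to Itgb5, at 0.10 each. The nearest genes to Itgam, Gpr84, Marcks and Slamf7, were 1.44 to 1.55 away. The distance is not scaled to a gene's own spread, which was wide for Itgam, so it cannot be compared between members. All these distances share the libraries and the smoke contrast, and are descriptions with no test.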

How the data were processed

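Poly-A RNA of sorted alveolar macrophages was sequenced from 20 mice, 5 in each of 4 groups taken from the labels. Per the labels' protocols, 25 ng of RNA entered the library preparation. Per the submitters' processing notes, the authors used STAR 2.6.0c, limma and genome build GRCm38.p6; the counting tool, annotation and low-count filter are not stated there. The values the authors deposited are log2 CPM. They fit the voom formula with 0.5 reads added to each count and 1 to the total: reads came back whole to within 1.08e-08 (tolerance 0.001), which gave the reads and CPM printed here.

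Limma 3.58.1 in R 4.3.3 was fitted to the deposited log2 values of the 13225 genes, with 1 mean for each group and a variance trend, and tested on simulated data. P-values are 2-sided and adjusted by Benjamini-Hochberg over all genes, with calls at 0.05. Folds compare means of log2 values with 0.5 reads added. For rare genes they can lie above or below the ratio of mean CPM, and libraries without a read weigh on them. SE comes from limma and SD from mice. P-values set a difference between groups against the spread between these mice, which limma pooled over the 4 groups and moderated across genes. Members and lists were chosen with earlier results of these data known. Values are printed library by library for members called in any comparison and for Itgax and Itgb2, and up to 4 called genes with the smallest p per list are named. Alternatives covered the variance model, low values, pseudocount, normalization, samples, mouse-code letter, weights and single libraries. Calls in the lists without 3 KO air libraries were added after seeing the data. Values of 2 genes, 1 of a list and 1 near the chromosome 7 cluster, are not reported here. Gene models are GENCODE M21.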

Additional observations from a re-analysis of the deposited data

Results flagged for a closer look

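Of 40 groups searched (10 members in 4 groups), 3 held a library far from the other 4, where chance gives about 1 in 20 groups. Itgad in the WT smoke library IIb3 was low, at 0.167 log2 CPM, while the other 4 libraries of that group lay between 1.14 and 1.45. Itgb7 was low in the WT air library Ib2, at -4.23 log2 CPM and no read, while the others lay between -0.47 and 0.73. Itgb7 was also low in the KO smoke library IVb2, at -4.45 and no read, while the others lay between -0.44 and 0.85.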

How the results depend on the processing

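No called change of a member turned direction under any of the alternatives. The decreases of Itgad, Itgal and Itga4 stayed past the threshold in both genotypes under all 31 alternatives, and the rise of Itgb5 did so in WT. The count of members called was 5 to 7 in WT smoke and 5 to 6 in KO smoke when single libraries were left out. Without the KO air libraries IIIb2, IIIb3 and IIIb4 it was 3 in KO smoke. Fewer samples remained in that fit, and calls over all genes were also fewer (612 higher and 608 lower, against 933 and 1118). Between the genotypes it was 1 in smoke on the log2(CPM + 5) scale (Itgam, adjusted p 0.0410 by limma), where the cause was not tested. With single libraries left out it was 0 to 1 in air and 0 to 1 in smoke. The KO call of Itgb2 held in 22 of 31 alternatives and the WT call in 30 of 31. No paired analysis was possible because each mouse code occurs once. Depth limits Itgam and Itgb7, which had no read in 2 and 5 libraries.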
